A study of Mus musculus with 15 samples.

Results

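The matrix metalloproteases (MMPs), the ADAMTS proteases and the tissue inhibitors of metalloproteases (TIMPs) were taken as every gene whose symbol starts with *Mmp*, *Adamts* or *Timp* followed by a digit. The files held 46 such genes among 21110, made up of 23 MMP, 19 ADAMTS and 4 TIMP genes. RNA from the ears of 15 C57BL/6 mice had been sequenced, 1 library for each mouse, to ask what the loss of *Socs3*, a brake on cytokine signaling through STAT3, does to the skin. The groups were wild type at 2 weeks after birth (n = 4), *Socs3* cKO at 2 weeks (n = 4), wild type at 10 weeks (n = 3) and *Socs3* cKO at 10 weeks (n = 4). *Socs3* cKO mice carry a conditional *Socs3* deletion driven by keratin 5, so the deletion is aimed at keratinocytes and not at the other cells of the ear. No other allele and no treatment is named for either genotype. The labels give keratinocytes as the source, while the protocol extracts RNA from ear specimens. Summed markers of fibroblasts, cartilage, skeletal muscle, fat and endothelium lay above 0 in all 15 libraries (those of muscle at 333 to 2800 FPKM and those of cartilage at 105 to 511 FPKM), so the values below are taken as those of whole ear. In such bulk samples, fewer cells of a type and less RNA of a gene per cell cannot be told apart.

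MMPs are zinc proteases that are made as inactive proenzymes and cut collagens, gelatin, proteoglycans and cell surface proteins. ADAMTS proteases are secreted relatives with thrombospondin repeats. Some of them cut the large proteoglycans aggrecan and versican, and others trim procollagens into fibril-forming collagen. TIMPs bind the active site of these enzymes and block it, and TIMP3 also blocks several ADAM and ADAMTS proteases. In skin these genes are best known from hair follicle growth, wound repair and the turnover of the dermis during postnatal growth.

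Expression was given as FPKM, fragments per length of transcript and per mapped reads of the library, which allows genes to be compared within a library. Depth was estimated from the smallest steps between values at 11400000 to 16700000 mapped reads, at which 1 read in a transcript of 3000 bases gives 0.02 to 0.0292 FPKM. Each group has its own range of library serial numbers in the labels, so a library batch and the group cannot be told apart. *Socs3* cKO replicate 1 at 2 weeks stood apart from the other libraries. Relative to the mean over all libraries, the median log2(FPKM + 0.1) of its genes of high GC content (at least 55.3% of the transcript) minus that of its genes of low GC content (at most 45.8%) was -2.12. This difference was between -0.38 and -0.13 in the other *Socs3* cKO libraries, between 0.65 and 0.73 in the wild type at 2 weeks and between 0.11 and 0.56 in the wild type at 10 weeks. The wild type libraries at 10 weeks stood apart in another way, with 2087, 3176 and 1414 genes at 0 FPKM against 4044 to 4423 in the other groups. They enter each comparison of genotypes at 10 weeks, the interaction and the age change of the wild type. What this difference does to values near the floor was not tested. The targeted gene had a *Socs3* FPKM of 1.25 to 12.6 in *Socs3* cKO against 9.71 to 10.3 in the wild type at 2 weeks, and of 29.8 to 47.7 against 2.02 to 4.81 at 10 weeks, so its level does not check the labels of these ear samples.

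A few genes carried most of the MMP signal. *Mmp2* (gelatinase A), *Mmp14* (a membrane-type protease that activates proMMP2) and *Mmp3* (stromelysin 1) together made 83.3% to 93.4% of the summed MMP FPKM in every library. *Mmp2* was the highest MMP gene in all 15 libraries, at 142 to 579 FPKM. Among the inhibitors, *Timp2* (46.3 to 273 FPKM) and *Timp3* (62.0 to 225 FPKM) lay above *Timp1* (15.0 to 51.7 FPKM) in every library, and *Timp4* (3.48 to 38.5 FPKM) was the lowest of the 4 in all libraries but *Socs3* cKO replicates 2 to 4 at 2 weeks. *Adamts1* and *Adamts2* were the only ADAMTS genes with more than 10 FPKM in wild type mice of both ages besides *Adamts14*. At the other end, 11 members did not reach 1 FPKM in 3 libraries and were not tested. They were the collagenases *Mmp1a*, *Mmp1b*, *Mmp8* and *Mmp13*, the matrilysin *Mmp7*, the membrane-type *Mmp24* and *Mmp25*, *Mmp20* and *Mmp21*, and *Adamts13* and *Adamts18*. *Mmp13*, the main collagenase of mouse interstitial tissue, was listed at 0 to 0.429 FPKM in 14 libraries and at 4.66 in *Socs3* cKO replicate 3 at 10 weeks. *Mmp1a* and *Mmp1b* are near copies of each other, so their reads may be shared between them, and neither passed 0.336 FPKM in any library. *Adamts18* lay at 0.946 to 1.31 FPKM in the wild type at 2 weeks and at no more than 0.416 in the other 11 libraries. The map of levels shows the members ordered by role in all 15 mice.

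**Figure D1:**
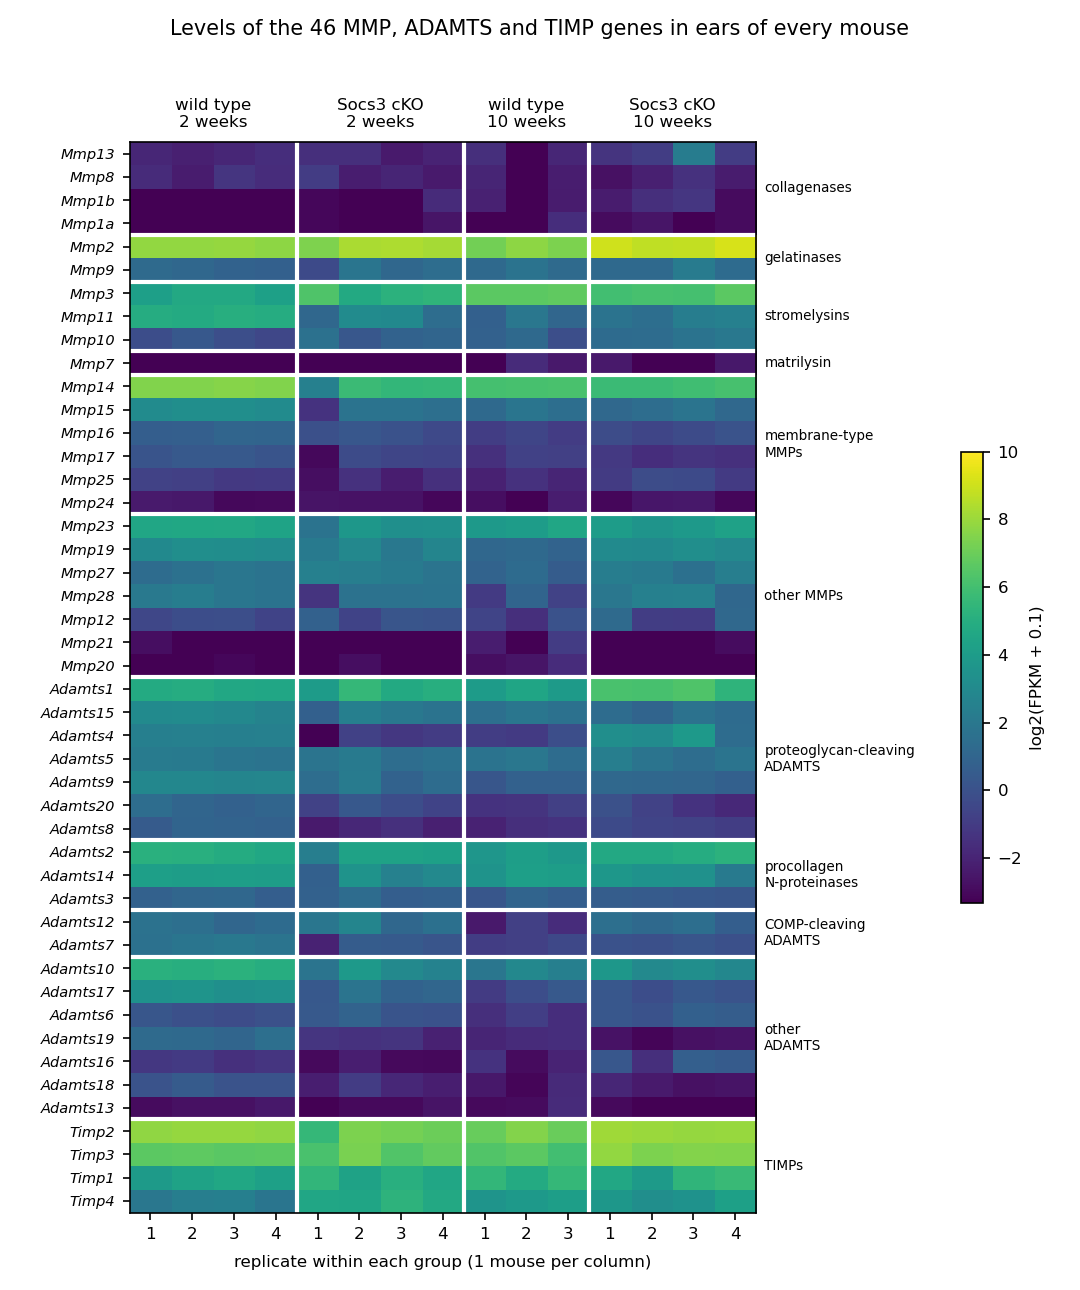
Levels of all 46 members in the 15 libraries, as log2(FPKM + 0.1), with genes in rows by role and libraries in columns by group. *Mmp2*, *Timp2* and *Timp3* are high in every column, while the collagenases and *Mmp7* stay near the floor.

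Of the MMP genes, 10 lie side by side on chromosome 9 of mm9, from 7272514 to 7699585, a stretch of 427072 bases. They include *Mmp3*, *Mmp10* and *Mmp13*, and *Mmp3* alone made 79.3% to 96.4% of their summed FPKM. The promoter windows of 3 of these genes are shown because they share a motif for the AP-1 transcription factor at a similar distance from the start. *Mmp27* of the same cluster is shown since its window lacks the motif, and *Mmp14* and *Timp4*, whose changes at 2 weeks are described further on, are shown as members outside the cluster. Each window holds the 250 bases before the transcript start given by RefSeq (table of build GRCm38.p6), located by an exact match at 1 place in mm9 and printed 5′ to 3′ on the strand of the gene. Capitals mark TGANTCA, which reads the same on both strands.
Mmp3: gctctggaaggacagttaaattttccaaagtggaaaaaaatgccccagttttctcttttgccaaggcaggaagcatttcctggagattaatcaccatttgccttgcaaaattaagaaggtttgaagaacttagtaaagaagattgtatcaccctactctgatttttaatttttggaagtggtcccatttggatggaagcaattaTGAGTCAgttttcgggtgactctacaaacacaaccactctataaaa
Mmp10: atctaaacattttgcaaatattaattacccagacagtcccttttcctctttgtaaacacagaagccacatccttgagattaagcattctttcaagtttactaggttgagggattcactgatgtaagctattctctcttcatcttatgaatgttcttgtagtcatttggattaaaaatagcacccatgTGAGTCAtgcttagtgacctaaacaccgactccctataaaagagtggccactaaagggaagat
Mmp13: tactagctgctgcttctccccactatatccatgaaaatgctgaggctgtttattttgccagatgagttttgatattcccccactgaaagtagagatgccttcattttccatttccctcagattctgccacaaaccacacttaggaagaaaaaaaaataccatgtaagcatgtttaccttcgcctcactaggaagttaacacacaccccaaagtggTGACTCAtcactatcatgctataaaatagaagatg
Mmp27: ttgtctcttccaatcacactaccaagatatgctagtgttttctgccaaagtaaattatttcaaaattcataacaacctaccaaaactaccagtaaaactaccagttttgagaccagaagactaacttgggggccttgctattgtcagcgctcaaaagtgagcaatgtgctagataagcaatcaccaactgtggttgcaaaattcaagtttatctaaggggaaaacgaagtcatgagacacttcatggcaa
Mmp14: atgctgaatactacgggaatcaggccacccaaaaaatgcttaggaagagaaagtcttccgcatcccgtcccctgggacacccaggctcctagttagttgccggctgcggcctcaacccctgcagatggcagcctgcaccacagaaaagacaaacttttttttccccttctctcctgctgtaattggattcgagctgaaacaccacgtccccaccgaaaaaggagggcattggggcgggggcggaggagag
Timp4: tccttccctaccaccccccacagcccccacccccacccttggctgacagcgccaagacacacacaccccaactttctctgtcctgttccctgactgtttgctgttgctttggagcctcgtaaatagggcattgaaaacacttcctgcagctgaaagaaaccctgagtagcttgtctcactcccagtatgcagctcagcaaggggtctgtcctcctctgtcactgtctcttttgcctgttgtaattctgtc

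These windows lie on mm9 at chr9:7445572-7445821 (*Mmp3*, plus strand), chr9:7502092-7502341 (*Mmp10*, plus strand), chr9:7272264-7272513 (*Mmp13*, plus strand), chr9:7571146-7571395 (*Mmp27*, plus strand), chr14:55050185-55050434 (*Mmp14*, plus strand) and chr6:115202224-115202473 (*Timp4*, minus strand). Counted from the start, with negative positions before it, the first base of the motif stood at position -46 in *Mmp3*, -63 in *Mmp10* and -35 in *Mmp13*. At least 1 promoter of 8 of the 10 cluster genes held TGANTCA, against 0 of the 22 members outside the cluster that had a promoter in the table. Over all 32851 promoters of the same length, 6.7% held it. The letters TATAAA, searched on the coding strand and not overlapping TGANTCA, were found for 7 of the 10 cluster genes, for 2 of the 22 members outside the cluster and in 7.6% of all promoters. Counted by gene, with any of its promoters, the shares over all genes were 7.8% for TGANTCA and 8.9% for TATAAA. A match is a description of the sequence and shows no binding. The cluster genes also differ from the other MMP genes in base composition, with a transcript GC content of 40.1% to 48.0% (median 42.8%) against 42.2% to 61.1% (median 56.6%) for the other 13.

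At 2 weeks, more members were down- than up-regulated in *Socs3* cKO ears, and *Timp4* was the 1 that rose. Genes with at least 1 FPKM in at least 3 libraries were compared with limma on log2(FPKM + 0.1), and differentially expressed genes (DEGs) were those past an adjusted p of 0.01 with a |log2(FC)| of at least 1. Of 33 members tested, 1 was up-regulated and 8 were down-regulated, against 7.24% up and 7.19% down of 13524 genes tested. The members down-regulated were *Mmp11* and 7 ADAMTS genes, and the member up-regulated was *Timp4*. Of these, *Adamts4*, *Adamts8* and *Adamts19* passed the filter through the wild type alone, with every *Socs3* cKO value below 1 FPKM. The median log2(FC) of the members was -1.06 (range -4.00 to 2.61), and that of all genes was -0.21. The 4 *Socs3* cKO mice were lower than each of the 4 wild type mice for 20 of the 33 members and higher for 2, against 33.2% and 22.9% of all genes. By family, 7 of 16 ADAMTS genes fell (median -1.34), 1 of 13 MMP genes fell (median -0.86) and 1 of 4 TIMP genes rose (median 0.30).

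Base composition moved with the result at 2 weeks. Across the 33 members, the log2(FC) and the GC content of the transcript had a Spearman correlation of -0.60, as a description over genes that share the same 8 libraries. With the trend of each library with transcript length and GC content removed, the correlation was -0.22 and 9 members were called, 2 up and 7 down, of which 6 were among the 9 called before, against 7.07% up and 5.90% down of all genes in the same fit. *Adamts9*, *Adamts10* and *Adamts20* left the calls and *Mmp2*, *Mmp14* and *Mmp16* entered them. Hair follicle markers moved with the same groups: 8 of 8 were down-regulated at 2 weeks, with a summed level of 1880 to 2740 FPKM in the wild type against 9.84 to 56.6 FPKM in *Socs3* cKO. Of 8 fibroblast markers, *Col1a1*, *Col1a2* and *Col3a1* fell and *Dcn* rose, and their summed level was 13000 to 15300 FPKM against 5390 to 7440 FPKM. Of 7 cartilage markers 3 fell, with a summed level of 330 to 511 FPKM against 105 to 345. Their part in the changes of the members was not tested.

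**Figure D2:**
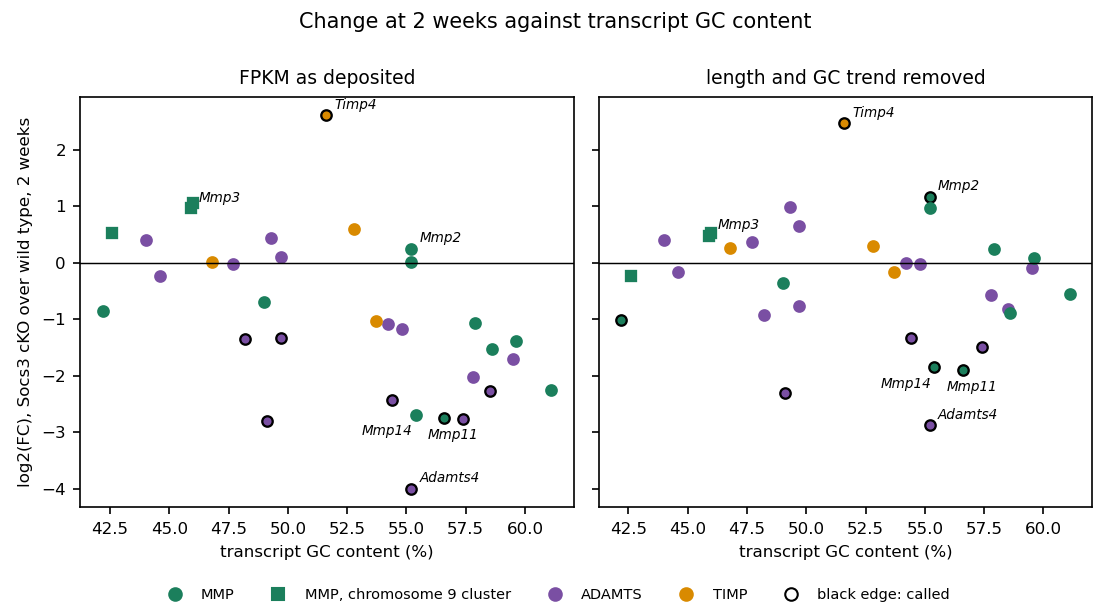
log2(FC) of the 33 tested members at 2 weeks against the GC content of the transcript in percent, with values as deposited and after the trend of each library with length and GC content was removed. Squares are genes of the chromosome 9 cluster and black edges mark DEGs. The slope towards lower values at high GC content (Spearman -0.60) is flatter after removal (-0.22), and *Timp4* stays high in both panels.

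At 10 weeks the members that were called were higher in *Socs3* cKO. Of 28 members tested, 9 were up-regulated, against 12.5% of 13105 genes tested. No member was down-regulated by limma, against 2.43% of all genes, and 1 member had a lower level at an unadjusted p below 0.05 while 14 had a higher one. The share of all genes past this unadjusted p was not counted, here or further on, so such counts have no background to set them against. The 9 were *Mmp2*, *Mmp19*, *Mmp28*, *Adamts1*, *Adamts2*, *Adamts4*, *Adamts6*, *Adamts12* and *Timp3*. The median log2(FC) of the members was 0.77 (range -0.75 to 3.58) and that of all genes was 0.31. The *Socs3* cKO mice were higher than each of the wild type mice for 12 of the 28 members and lower for 0, against 31.2% and 11.1% of all genes. These counts depend in part on the filter. Of the 9, *Adamts4*, *Adamts6* and *Adamts12* passed it through *Socs3* cKO alone, with every wild type value below 1 FPKM. Among members it left out, *Adamts19* and *Mmp20* were lower in *Socs3* cKO with no overlap, and *Adamts7*, *Adamts8*, *Mmp16* and *Mmp25* were higher. The excess of up-regulated genes at this age depends on the scaling: over all genes 1638 rose and 319 fell as deposited, 1073 and 632 after median-of-ratios scaling, and 909 and 817 after quantile normalization, which put the median of all genes at 0.06 and -0.04. Of the members, 6 rose and 0 fell after the former, 7 rose and 0 fell after the latter, and 6 rose and 2 fell (*Adamts3* and *Adamts14*) with the length and GC trend removed, where 5.93% of all genes rose and 4.19% fell. Of 7 macrophage markers, 6 rose at 10 weeks, with a summed level of 631 to 1080 FPKM in *Socs3* cKO and 267 to 439 FPKM in the wild type. The fibroblast markers summed to 7160 to 12400 against 4130 to 7140 FPKM, and *Pdgfra* alone of these 8 rose. Of 5 endothelial markers 3 rose (summed level 41.4 to 55.0 against 35.4 to 43.1 FPKM), and of 5 adipocyte markers 2 rose (401 to 779 against 324 to 428 FPKM). The endothelial marker *Cldn5* was lower with no overlap (11.2 to 16.8 against 20.9 to 32.7 FPKM) and was not called. Of 5 skeletal muscle markers 1 fell and 0 rose (333 to 612 against 669 to 1140 FPKM). Of 7 cartilage markers 1 fell (*Sox9*) and 0 rose (114 to 265 against 131 to 168 FPKM), but the other 6 had a positive log2(FC), and the median was 0.48. The cartilage marker *Acan* was higher with no overlap (22.5 to 42.9 against 11.0 to 20.4 FPKM) and was not called. The part of these cells in the changes of the members was not tested.

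**Figure D3:**
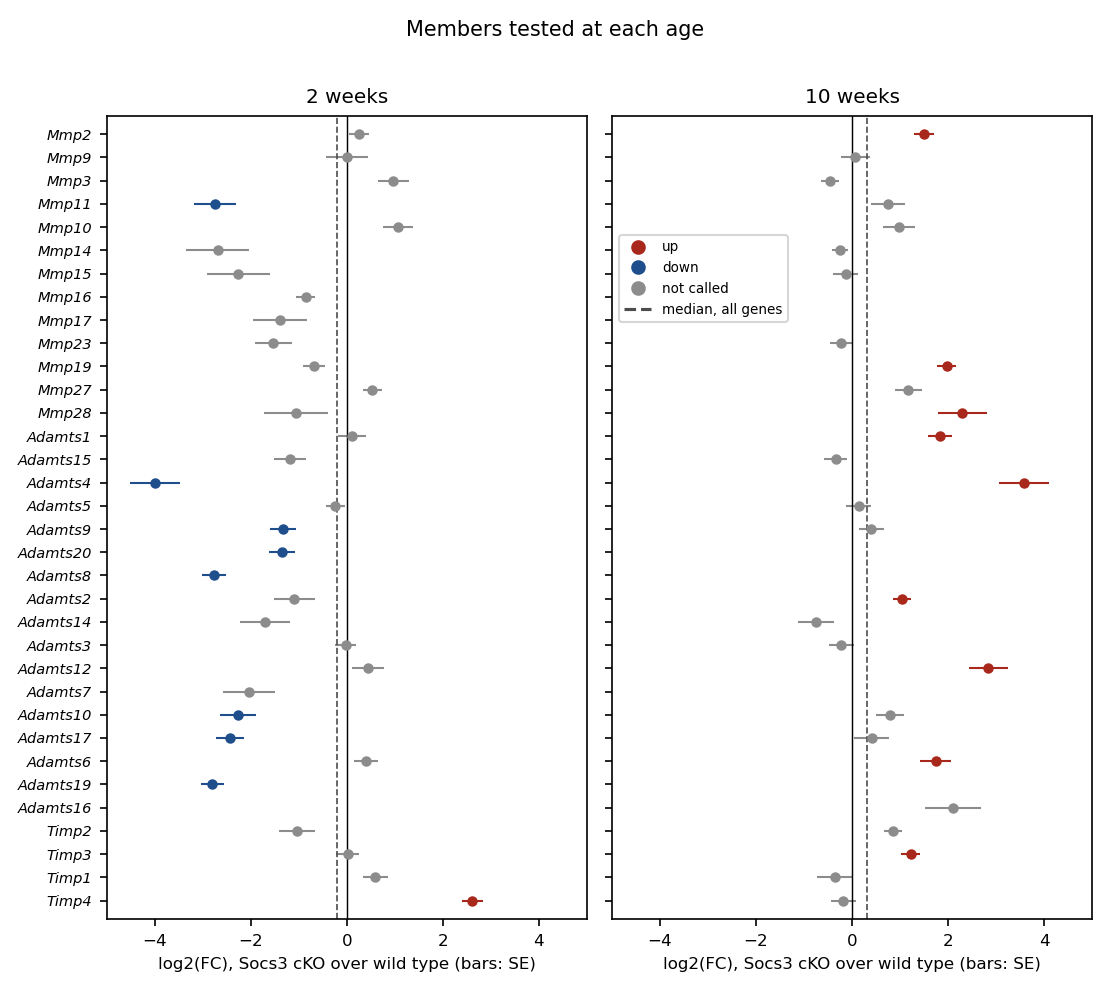
log2(FC) of *Socs3* cKO against wild type with its standard error for each tested member at 2 weeks (n = 4 and 4) and at 10 weeks (n = 4 and 3). Red marks members up-regulated, blue down-regulated and grey not called, and the dashed line is the median of all genes. The blue points of 2 weeks are *Mmp11* and 7 ADAMTS genes, and no point is blue at 10 weeks.

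The gelatinases degrade denatured collagen and basement membrane collagen, and *Mmp2* was up-regulated at 10 weeks. For *Mmp2* the FPKM at 2 weeks was 227, 233, 237 and 215 in the wild type against 174, 320, 326 and 294 in *Socs3* cKO. The groups overlapped only through *Socs3* cKO replicate 1, and the log2(FC) was 0.25 (SE 0.21, adjusted p = 0.34). It was 1.17 (SE 0.14, adjusted p = 0.000227), and called, with the length and GC trend removed, and its adjusted p ranged from 3.66e-05 to 0.585 over 19 alternatives. At 10 weeks *Mmp2* was at 142, 216 and 166 FPKM in the wild type against 528, 424, 436 and 579 in *Socs3* cKO, with no overlap. It was up-regulated by a log2(FC) of 1.50 (SE 0.21, adjusted p = 0.0012), and it remained called in each of the alternatives run. *Mmp9* (gelatinase B), which is abundant in neutrophils, lay between 0.686 and 4.56 FPKM over all libraries, and its log2(FC) was 0.01 at 2 weeks and 0.07 at 10 weeks. At 2 weeks it ranged from -0.27 to 1.1 over 19 alternatives, with an adjusted p of 0.000862 to 0.996, and the highest value, with the length and GC trend removed and without *Socs3* cKO replicate 1, was the 1 that was called. Neutrophil markers were low throughout, at a sum of 1.5 to 11.4 FPKM over 6 genes.

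Of the stromelysins, *Mmp11* was down-regulated at 2 weeks. *Mmp3* and *Mmp10*, whose proteins cut proteoglycans, fibronectin and other MMPs, were called at neither age. *Mmp11* (stromelysin 3) was at 30.1, 28.1, 32.3 and 30.3 FPKM in the wild type at 2 weeks against 2.10, 8.43, 7.78 and 2.64 in *Socs3* cKO. All *Socs3* cKO values lay far below the wild type, and the log2(FC) was -2.75 (SE 0.44, adjusted p = 0.00257). The call was lost without any 1 of the 4 wild type mice, at an adjusted p of 0.0102 to 0.0108, with the log2(FC) between -3.06 and -2.41 over the mice left out and the adjusted p between 0.00019 and 0.0108 over all 19 alternatives. At 10 weeks *Mmp11* was already low in the wild type, at 1.60, 3.78 and 2.01 FPKM, against 3.32, 2.71, 4.93 and 5.43 in *Socs3* cKO. The groups overlapped and the log2(FC) was 0.75 (SE 0.35, adjusted p = 0.111). The bounds of *Mmp11* and *Chchd10* on the opposite strand overlap by 2153 bases, but 0 of the 2645 exon bases of *Mmp11* are also exon bases of *Chchd10*.

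*Mmp3* was named after its values were seen, because it is the highest gene of the chromosome 9 cluster. Its FPKM at 2 weeks was 18.4, 26.3, 26.2 and 18.9 in the wild type against 80.7, 27.4, 38.3 and 41.9 in *Socs3* cKO. The groups did not overlap, but *Socs3* cKO replicate 1 was high and replicate 2 close to the wild type, and the log2(FC) of 0.97 (SE 0.32, adjusted p = 0.0345) was not called. The 10-week values were 101, 99.9 and 106 FPKM in the wild type against 62.9, 69.7, 67.7 and 101 in *Socs3* cKO, a log2(FC) of -0.46 (SE 0.19, adjusted p = 0.0812). *Mmp10* (stromelysin 2), a gene of wound-edge keratinocytes, was low, at 0.617 to 1.19 FPKM in the wild type against 1.12 to 2.98 in *Socs3* cKO at 2 weeks, and at 0.813 to 2.25 against 2.41 to 3.95 at 10 weeks. Its log2(FC) was 1.06 (adjusted p = 0.0251) and 0.98 (adjusted p = 0.0478). Neither was called, and the value at 2 weeks was called in 2 of 19 alternatives, such as without *Socs3* cKO replicate 2 (1.28, adjusted p = 0.00687, the range being 0.00687 to 0.154). *Mmp27*, the third tested gene of the cluster, had a log2(FC) of 0.53 (adjusted p = 0.0528) and 1.17 (adjusted p = 0.0109). So all 3 tested cluster genes had a positive log2(FC) at 2 weeks (median 0.97) and an unadjusted p below 0.05 in limma, and none was called, whereas the 10 tested MMP genes outside the cluster had a median of -1.23. With the length and GC trend removed, *Mmp3* was at 0.48, *Mmp10* at 0.53 and *Mmp27* at -0.23.

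The membrane-type MMPs sit in the cell membrane, where they cut pericellular collagen. *Mmp14*, also named after its values were seen, showed the largest gap between the groups in FPKM among the MMP genes at 2 weeks. It was at 177, 178, 192 and 180 FPKM in the wild type against 5.58, 53.7, 44.9 and 46.1 in *Socs3* cKO. The 3 other *Socs3* cKO mice lay close together and replicate 1 far below them. This spread put the log2(FC) of -2.69 (SE 0.66, adjusted p = 0.0132) just outside the calls. Without *Socs3* cKO replicate 1 the log2(FC) was -1.92 (SE 0.09, adjusted p = 4.8e-06), and with the length and GC trend removed it was -1.85 (SE 0.38, adjusted p = 0.00406). It was called in 7 of 19 alternatives, with an adjusted p of 2.53e-06 to 0.0367. At 10 weeks *Mmp14* was at 66.5, 70.7 and 73.3 FPKM in the wild type against 54.9, 54.3, 59.4 and 69.1 in *Socs3* cKO, a log2(FC) of -0.25 (SE 0.16, adjusted p = 0.233). The values of both genotypes at 10 weeks were thus nearer to the *Socs3* cKO values at 2 weeks than to the wild type of that age.

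*Mmp15*, *Mmp16* and *Mmp17* were also lower in all 4 *Socs3* cKO mice than in all 4 wild type mice at 2 weeks. None of the 4 tested membrane-type genes was called by limma, and all 4 had an unadjusted p below 0.05. *Mmp15* was at 8.53 to 9.58 FPKM in the wild type against 0.280 to 3.32 in *Socs3* cKO, with a log2(FC) of -2.26 (SE 0.66, adjusted p = 0.0245). That value was -1.49 (adjusted p = 2.51e-05) and called without *Socs3* cKO replicate 1, and -0.56 (adjusted p = 0.0291) with the length and GC trend removed, in a range of 2.51e-05 to 0.0591. *Mmp16* was at 1.50, 1.52, 1.91 and 1.83 FPKM in the wild type against 0.859, 1.11, 0.940 and 0.672 in *Socs3* cKO, a log2(FC) of -0.86 (SE 0.20, adjusted p = 0.0115). At 10 weeks the values were 0.430, 0.583 and 0.407 against 0.749, 0.588, 0.731 and 0.953 FPKM, with no overlap and too low to be tested. *Mmp17* ranged from 0.0204 to 1.24 FPKM over all libraries.

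The makeup of the summed MMP signal differed between the groups. *Mmp14* made 33.9% to 36.4% of the summed MMP FPKM in the wild type at 2 weeks and 1.97%, 12.0%, 10.0% and 11.0% in *Socs3* cKO. *Mmp2* made 43.4% to 44.8% in that wild type against 61.6% to 72.7% in *Socs3* cKO. At 10 weeks *Mmp2* made 42.0% to 51.0% in the wild type against 70.4% to 76.1% in *Socs3* cKO, and *Mmp3* made 23.5% to 29.7% and 9.07% to 12.6%. These shares were chosen after the values were seen and are given as a description. The summed MMP FPKM itself was 496 to 547 in the wild type against 283 to 449 in *Socs3* cKO at 2 weeks. At 10 weeks it was 338 to 425 against 591 to 802. The ratio of the summed MMP to the summed TIMP FPKM stayed between 1.21 and 1.63 in all 15 libraries.

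**Figure D4:**
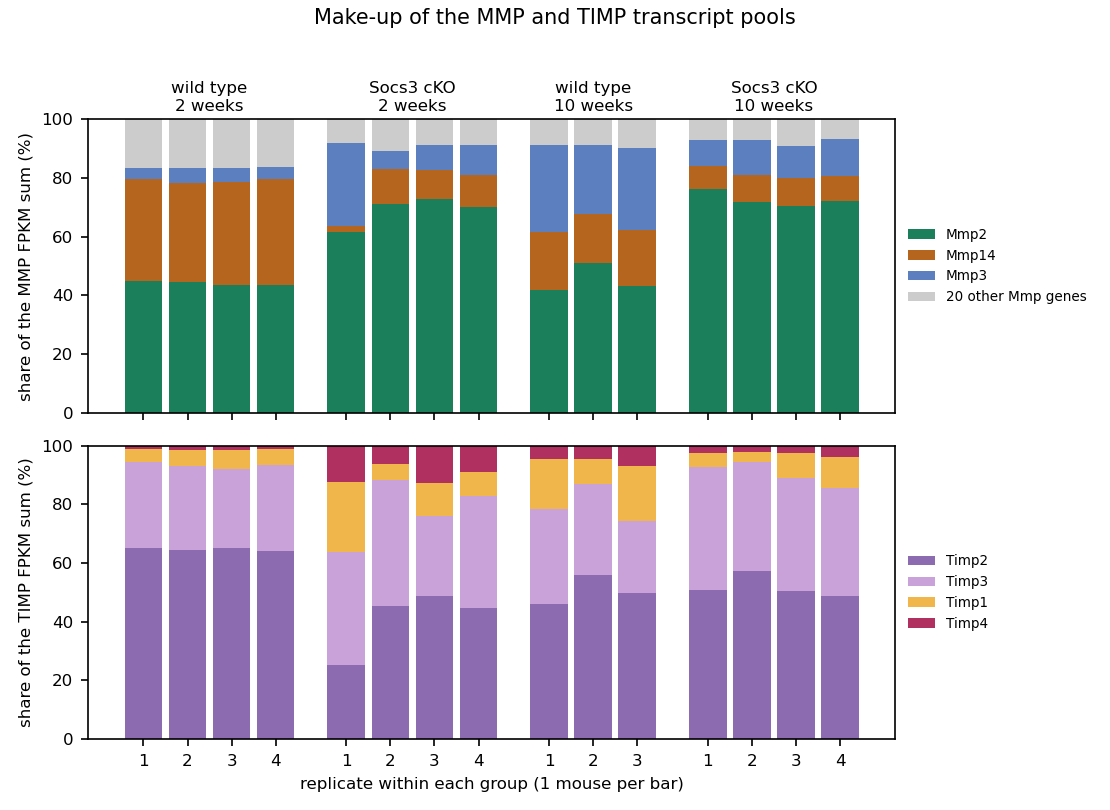
Shares of the summed MMP FPKM taken by *Mmp2*, *Mmp14*, *Mmp3* and the other MMP genes, and shares of the summed TIMP FPKM taken by each TIMP gene, in percent, with 1 bar for each library. *Mmp14* makes 33.9% to 36.4% of the MMP bars of the wild type at 2 weeks and at most 19.7% elsewhere, and *Timp4* takes up to 12.7% of the TIMP bars in *Socs3* cKO at 2 weeks and at most 7.04% elsewhere.

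Of the other MMP genes, *Mmp19* and *Mmp28* (epilysin) are both known from the epidermis. *Mmp19* was at 7.87, 9.42, 9.26 and 8.35 FPKM in the wild type against 4.22, 7.30, 3.95 and 6.67 in *Socs3* cKO at 2 weeks, with no overlap and a log2(FC) of -0.69 (SE 0.23, adjusted p = 0.0352). The mice of 10 weeks had 2.12, 2.28 and 1.76 against 8.25, 7.83, 9.46 and 7.70 FPKM. The *Socs3* cKO mice at 10 weeks were thus near the level of the wild type at 2 weeks, and the log2(FC) of 1.97 (SE 0.19, adjusted p = 0.000213) was the value with the smallest adjusted p among the members at this age. *Mmp28* was at 4.12, 4.91, 3.68 and 3.30 FPKM in the wild type against 0.297, 3.19, 3.15 and 3.27 in *Socs3* cKO at 2 weeks, where all but *Socs3* cKO replicate 1 lay just below the wild type (log2(FC) -1.06, adjusted p = 0.201). At 10 weeks the values were 0.385, 1.85 and 0.508 against 3.77, 5.58, 5.79 and 2.08 FPKM, a log2(FC) of 2.30 (SE 0.51, adjusted p = 0.00778). Wild type replicate 2 and *Socs3* cKO replicate 4 came close to each other. This call was lost without wild type replicate 1 (1.91, adjusted p = 0.033) or 3 (2.08, 0.0423) and without *Socs3* cKO replicate 1 (2.33, 0.0169), 2 (2.15, 0.0208) or 3 (2.13, 0.0198), and the adjusted p ranged from 0.00126 to 0.0423 over 17 alternatives. It was also lost with no filter, after median-of-ratios scaling and with 1 fit of all groups, and 9 of the 17 alternatives kept it. On the opposite strand, *1110012D08Rik* shares 23.1% of the exon bases of *Mmp19* and *1700020L24Rik* shares 12.0% of those of *Mmp28*, and reads there cannot be told apart without strand. *Mmp23* lay at 21.1 to 25.7 FPKM in the wild type against 3.22 to 13.2 in *Socs3* cKO at 2 weeks, with a log2(FC) of -1.53 (adjusted p = 0.0154) that was not called, and at -0.23 at 10 weeks. *Mmp12* (macrophage elastase) stayed between 0.25 and 2.32 FPKM and was not tested between the genotypes.

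**Figure D5:**
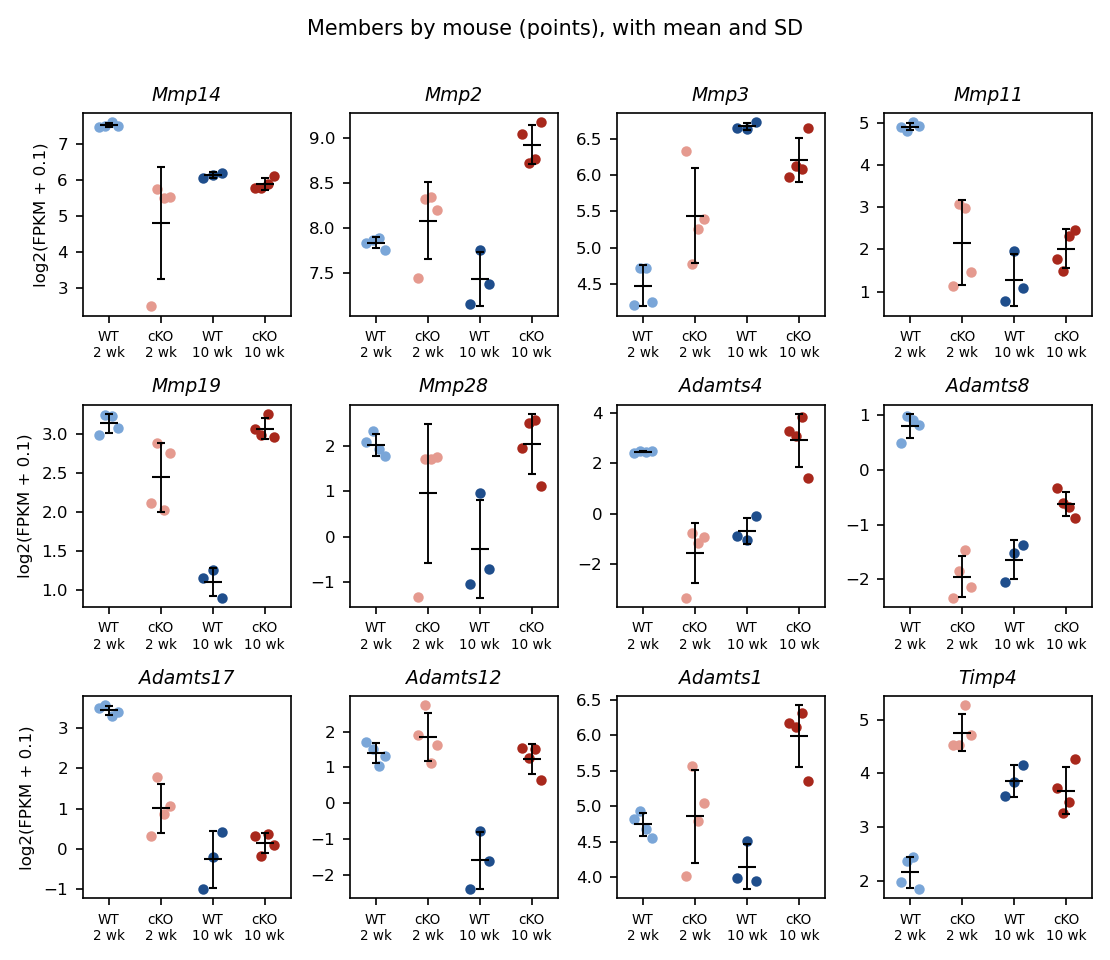
log2(FPKM + 0.1) of 12 members in each mouse (points) with the group mean and SD (bars), for wild type and *Socs3* cKO at 2 and 10 weeks. *Adamts4* is low in *Socs3* cKO at 2 weeks and high at 10 weeks, with the wild type in the reverse order, and *Timp4* is highest in *Socs3* cKO at 2 weeks.

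Among the ADAMTS proteases that cut aggrecan or versican, *Adamts4* (aggrecanase 1) had the largest differences at both ages. It was at 5.25, 5.47, 5.33 and 5.42 FPKM in the wild type at 2 weeks against 0, 0.488, 0.343 and 0.423 in *Socs3* cKO. Values at 10 weeks were 0.437, 0.388 and 0.832 FPKM in the wild type against 9.59, 8.44, 14.2 and 2.56 in *Socs3* cKO. The groups lay apart at both ages, in opposite order. The log2(FC) was -4.00 (SE 0.52, adjusted p = 0.00101) and 3.58 (SE 0.52, adjusted p = 0.00122), on a scale where the added 0.1 FPKM shrinks the changes of low genes. It was called down at 2 weeks in 18 of 19 alternatives (adjusted p from 2.09e-06 to 0.0116), the other being a pseudocount of 0.01 (-5.02), and up at 10 weeks in 17 of 17.

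*Adamts8* was at 1.31, 1.89, 1.78 and 1.67 FPKM in the wild type at 2 weeks against 0.0978, 0.176, 0.261 and 0.127 in *Socs3* cKO, with no overlap. Its log2(FC) was -2.76 (SE 0.25, adjusted p = 0.000164), and -1.49 with the length and GC trend removed, still called. The 10-week values were 0.142, 0.248 and 0.287 against 0.690, 0.554, 0.528 and 0.443 FPKM, too low to be tested. *Adamts9*, at 7.08, 7.10, 6.69 and 6.71 against 2.60, 4.50, 1.70 and 2.55 FPKM at 2 weeks, fell by 1.33 on the log2 scale (adjusted p = 0.00642). *Adamts20*, which is needed for the migration of pigment cells to the skin, was at 2.57, 1.94, 1.63 and 1.92 against 0.525, 1.18, 0.789 and 0.530 FPKM and fell by 1.35 (adjusted p = 0.00713). Neither overlapped between the groups. Both calls were lost without any 1 wild type mouse (adjusted p of 0.0218 to 0.0241 for *Adamts9* and 0.0181 to 0.0263 for *Adamts20*) and without *Socs3* cKO replicate 3 (0.0137 and 0.019) or 4 (0.0194 and 0.0203). With the length and GC trend removed they were at -0.76 and -0.92 and not called, and over 19 alternatives the adjusted p reached from 0.000475 to 0.0241 and from 0.00136 to 0.0275. Quantile normalization and the replicate block also lost both calls, which were kept in 9 (*Adamts9*) and 8 (*Adamts20*) of the 19. At 10 weeks *Adamts9* was at 1.09, 1.69 and 1.64 against 2.14, 2.09, 2.02 and 1.57 FPKM (log2(FC) 0.40, adjusted p = 0.243) and *Adamts20* was at 0.282, 0.296 and 0.472 against 0.896, 0.515, 0.292 and 0.194 FPKM, too low to be tested.

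*Adamts1*, an inflammation-inducible member, differed at 10 weeks. It was at 28.0, 30.4, 25.5 and 23.3 FPKM in the wild type against 16.0, 47.5, 27.5 and 33.0 in *Socs3* cKO at 2 weeks, where the groups overlapped (log2(FC) 0.11, adjusted p = 0.767). At 10 weeks the values were 15.7, 22.7 and 15.3 against 71.7, 69.3, 79.8 and 40.7 FPKM. The groups lay apart and the log2(FC) was 1.84 (SE 0.25, adjusted p = 0.00102). It was 1.12 with the length and GC trend removed, and called in each alternative run. *Adamts15* had a log2(FC) of -1.18 (adjusted p = 0.023) at 2 weeks and -0.34 at 10 weeks, and *Adamts5* (aggrecanase 2) of -0.24 and 0.14, with 2.56 to 5.00 FPKM over all libraries. In all, 4 of the 7 genes of this role fell at 2 weeks, against 7.19% of all genes, and 2 of 5 tested rose at 10 weeks, against 12.5%.

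The procollagen N-proteinases remove the amino-terminal propeptide of fibrillar collagens. *Adamts2* was at 34.8, 34.3, 28.9 and 24.2 FPKM in the wild type against 5.12, 20.2, 20.2 and 19.1 in *Socs3* cKO at 2 weeks, with no overlap and a log2(FC) of -1.09 (SE 0.43, adjusted p = 0.0649). The mice of 10 weeks had 12.6, 17.9 and 13.8 against 26.6, 26.5, 30.6 and 38.0 FPKM, and the log2(FC) of 1.04 (SE 0.19, adjusted p = 0.0039) passed close to the threshold. The call was lost without wild type replicate 1 (log2(FC) 0.93, adjusted p = 0.0188) or 3 (adjusted p = 0.018) and without *Socs3* cKO replicate 3 (1.03, adjusted p = 0.0116) or 4 (0.92, adjusted p = 0.00599). It was also lost with 1 fit of all groups, the replicate block, a pseudocount of 1, quantile normalization, scaling by median of ratios and the length and GC trend removed, where the log2(FC) was lowest (0.31). In all, 7 of 17 alternatives kept it, and the adjusted p ranged from 0.00246 to 0.401. *Adamts14* had a log2(FC) of -1.71 (adjusted p = 0.0274) and -0.75 (adjusted p = 0.131), and *Adamts3* of -0.02 and -0.22. Of the fibrillar collagen genes these enzymes act on, *Col1a1*, *Col1a2* and *Col3a1* were down-regulated at 2 weeks, as given above.

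*Adamts7* and *Adamts12* cut the cartilage protein COMP. *Adamts12* was at 3.19, 2.77, 1.97 and 2.41 FPKM in the wild type against 3.68, 6.56, 2.07 and 2.96 in *Socs3* cKO at 2 weeks, with overlapping groups (log2(FC) 0.44, adjusted p = 0.286). At 10 weeks the values were 0.0906, 0.481 and 0.224 against 2.81, 2.29, 2.74 and 1.47 FPKM. The *Socs3* cKO mice at 10 weeks lay near the level of both genotypes at 2 weeks and the wild type far below, with a log2(FC) of 2.84 (SE 0.41, adjusted p = 0.00131). *Adamts7* was at 3.02, 3.46, 3.89 and 3.42 against 0.144, 1.36, 1.27 and 1.06 FPKM at 2 weeks, a log2(FC) of -2.03 (SE 0.54, adjusted p = 0.0178) that was not called. Its values at 10 weeks, 0.437, 0.468 and 0.645 against 0.931, 0.836, 1.04 and 0.843 FPKM, did not overlap and were too low to be tested.

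The remaining ADAMTS genes held 3 of the 8 falls at 2 weeks. *Adamts10*, which acts on fibrillin microfibrils, was at 34.5, 33.0, 36.4 and 30.9 FPKM in the wild type against 3.39, 14.8, 7.70 and 5.86 in *Socs3* cKO, a log2(FC) of -2.27 (SE 0.38, adjusted p = 0.00323). *Adamts17* was at 11.1, 11.7, 9.69 and 10.4 against 1.15, 3.34, 1.72 and 1.98 FPKM, a log2(FC) of -2.43 (SE 0.29, adjusted p = 0.000608). *Adamts19* was at 2.35, 2.27, 1.92 and 2.81 against 0.316, 0.271, 0.307 and 0.134 FPKM, a log2(FC) of -2.80 (SE 0.24, adjusted p = 0.000153). None of the 3 overlapped between the groups. *Adamts17* and *Adamts19* were called in each alternative run. *Adamts10* was lost without any 1 wild type mouse (adjusted p of 0.0119 to 0.0131), without *Socs3* cKO replicate 3 (0.0109) or 4 (0.012), and with the length and GC trend removed (-0.82), in a range from 0.000258 to 0.0185. The replicate block also lost it, and it was called in 10 of 19 alternatives. At 10 weeks all 3 were low in both genotypes. *Adamts10* was at 3.66, 7.30 and 5.33 against 13.3, 7.73, 9.46 and 7.10 FPKM, *Adamts17* at 0.401, 0.774 and 1.24 against 1.14, 0.781, 1.19 and 0.967, and *Adamts19* at 0.163, 0.206 and 0.234 against 0.0543, 0.0125, 0.0541 and 0.0631. *Adamts19* was lower in *Socs3* cKO with no overlap, and where an alternative tested it the log2(FC) was -1.05, called in 1 fit of all groups (adjusted p = 0.00945) and not called with no filter (adjusted p = 0.0172). The other 2 had a log2(FC) of 0.79 (*Adamts10*, adjusted p = 0.0536) and 0.41 (*Adamts17*, adjusted p = 0.401).

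*Adamts6* was up-regulated at 10 weeks, and *Adamts16* was not called at that age. *Adamts6* was at 0.250, 0.460 and 0.239 FPKM in the wild type against 1.14, 0.907, 1.62 and 1.45 in *Socs3* cKO, with no overlap and a log2(FC) of 1.74 (SE 0.33, adjusted p = 0.00427). It was lost without wild type replicate 1 (adjusted p = 0.0165) or 3 (0.0217), and with the length and GC trend removed (0.97), in a range from 0.000448 to 0.0364. A pseudocount of 1, quantile normalization and the replicate block also lost the call, and 7 of 13 alternatives kept it. At 2 weeks it was at 1.09, 0.862, 0.750 and 0.883 against 1.23, 1.81, 1.01 and 0.930 FPKM (log2(FC) 0.40, adjusted p = 0.189). *Adamts16* was at 0.280, 0.0297 and 0.154 FPKM against 1.13, 0.246, 1.52 and 1.33 at 10 weeks, where wild type replicate 1 lay above *Socs3* cKO replicate 2. Its log2(FC) of 2.10 (SE 0.59, adjusted p = 0.021) was not called. At 2 weeks it was at 0.347, 0.376, 0.258 and 0.315 against 0.0281, 0.114, 0.0250 and 0.0228 FPKM, which is within a few reads of 0 in *Socs3* cKO and was too low to be tested.

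The 4 inhibitors did not move as a group. *Timp4*, which lies on chromosome 6 of mm9 from 115195634 to 115201867 with 5 exons, was at 3.81, 5.02, 5.33 and 3.48 FPKM in the wild type at 2 weeks against 23.1, 23.0, 38.5 and 26.1 in *Socs3* cKO. The *Socs3* cKO values lay above all wild type values, and the log2(FC) was 2.61 (SE 0.22, adjusted p = 0.000133). It stayed between 2.39 and 2.87 under the other processing choices and between 2.44 and 2.71 without any 1 mouse, and was called each time. At 10 weeks *Timp4* was at 11.8, 14.2 and 17.8 against 13.1, 9.45, 11.0 and 19.2 FPKM, with overlapping groups and a log2(FC) of -0.18 (SE 0.26, adjusted p = 0.597). *Timp4* is known from muscle, heart and fat. At 2 weeks the summed level of 5 skeletal muscle markers was 602 to 916 FPKM in the wild type against 1420 to 2800 in *Socs3* cKO, with 3 of 5 up-regulated, and that of 5 adipocyte markers was 221 to 257 and 392 to 773 FPKM, with 1 of 5 up-regulated. Their part in the rise of *Timp4* was not tested. *Timp4* lies whole within the bounds of *Syn2* on the opposite strand, and 0 of its 1416 exon bases are exon bases of *Syn2*.

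*Timp3*, which is bound to the matrix, was at 98.8, 103, 96.3 and 101 FPKM in the wild type against 70.9, 160, 83.2 and 111 in *Socs3* cKO at 2 weeks, with overlapping groups (log2(FC) 0.02, adjusted p = 0.957). Values at 10 weeks were 83.9, 100 and 62.0 against 225, 168, 182 and 181 FPKM, with no overlap. The log2(FC) was 1.22 (SE 0.20, adjusted p = 0.00228), was not called after median-of-ratios scaling, and was 0.49 with the length and GC trend removed, again not called. *Timp2*, the inhibitor that takes part in the activation of proMMP2 by MMP14, was at 222, 234, 234 and 220 FPKM in the wild type against 46.3, 168, 148 and 130 in *Socs3* cKO at 2 weeks. The groups did not overlap, and the log2(FC) was -1.04 (SE 0.37, adjusted p = 0.0466), or -0.16 with the length and GC trend removed. At 10 weeks *Timp2* was at 121, 182 and 126 against 273, 258, 238 and 242 FPKM, again with no overlap, and its log2(FC) of 0.85 (SE 0.19, adjusted p = 0.00872) was under the fold change needed for a DEG. It was called in 1 of 17 alternatives, without wild type replicate 2 (1.03, adjusted p = 0.0025, the range being 0.0025 to 0.069). *Timp1*, the inflammation-inducible inhibitor, was at 15.0, 20.2, 24.0 and 18.8 against 43.7, 20.2, 34.0 and 23.6 FPKM at 2 weeks and at 44.5, 28.3 and 47.0 against 25.7, 15.4, 41.5 and 51.7 FPKM at 10 weeks. The groups overlapped at both ages, with a log2(FC) of 0.59 (SE 0.26, adjusted p = 0.0882) and -0.36 (SE 0.38, adjusted p = 0.472). *Timp1* and *Timp3* lie opposite *Syn1* and *Syn3* in the same way. *Timp1* shares 0 exon bases with *Syn1*, and *Timp3* shares 1733 of 8144 (21.3%) with *Syn3*, where reads of the 2 genes cannot be told apart without strand, which is not given for the counting in the sources used here.

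The *Socs3* cKO change differed between the ages for many members. In a fit of all 4 groups, the genotype by age interaction had an adjusted p below 0.01 for 19 of 35 members, against 25.6% of 13937 genes. It was positive, meaning a higher log2(FC) at 10 weeks than at 2 weeks, for 18 of them, against 18.5% of all genes, and negative for *Timp4* alone, against 7.05%. This balance depends on the scaling: over all genes 13.0% were positive and 11.9% negative after median-of-ratios scaling, and 13.0% and 16.8% after quantile normalization, while of the members 13 were positive and 2 negative after the former and 14 and 2 after the latter. The median over the members was 1.58, and the median over all genes was itself shifted to 0.55. The largest value was that of *Adamts4* (7.58, SE 0.80, adjusted p = 2.81e-05), followed by *Adamts8* (3.78, SE 0.38), *Adamts16* (3.66, SE 0.68) and *Mmp11* (3.50, SE 0.60). That of *Timp4* was -2.79 (SE 0.36, adjusted p = 9.56e-05), and that of *Mmp19* was 2.66 (SE 0.29, adjusted p = 3.31e-05). The other 13, which included *Mmp2* (1.25), *Timp2* (1.88) and *Timp3* (1.21), lay between 1.21 and 3.37. *Adamts8* and *Adamts19* passed the filter of this fit through the wild type at 2 weeks alone, and *Adamts16* through *Socs3* cKO at 10 weeks alone. All their other values were below 1 FPKM, so their size and rank rest on that 1 group. With the length and GC trend removed 11 were called, 6 positive and 5 negative, against 10.1% and 13.9% of all genes in that fit, and 6 of the 11 were shared: *Adamts4*, *Adamts8*, *Adamts10*, *Mmp11*, *Mmp19* and *Timp4*. These same 6 remained called in each alternative and without any 1 mouse. Without wild type replicate 1 at 10 weeks, 9 of the other 13 lost the call (*Mmp2*, *Mmp16*, *Mmp28*, *Adamts1*, *Adamts2*, *Adamts7*, *Adamts12*, *Timp2* and *Timp3*). All of these but *Mmp16* and *Adamts7* were also lost without wild type replicate 3 of that age. *Timp3* was lost without any 1 of 12 mice (adjusted p up to 0.0299), *Mmp28* without any 1 of 10 (up to 0.032) and *Adamts1* without any 1 of 9 (up to 0.0181). Over all 25 alternatives the adjusted p ran from 0.000842 to 0.457 for *Timp3*, from 0.00281 to 0.032 for *Mmp28* and from 0.00114 to 0.0731 for *Adamts1*, with a positive value each time.

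The wild type itself changed with age. From 2 to 10 weeks, 14 of 35 members were down-regulated and 2 up-regulated in the wild type, against 19.4% and 6.18% of all genes. The excess of falls over all genes was smaller or turned under other scalings, where 12.5% fell and 11.1% rose after median-of-ratios scaling, 11.3% and 12.3% after quantile normalization, and 8.63% and 8.56% with the length and GC trend removed. Of the members, 12 fell and 2 rose, 11 fell and 5 rose, and 12 fell and 4 rose in these 3 settings. The median was -1.23, with -0.44 over all genes. All wild type mice at 10 weeks lay below all those at 2 weeks for 22 members and above them for 3, against 49.5% and 17.3% of all genes. The 14 were 11 of 17 ADAMTS genes together with *Mmp11*, *Mmp16* and *Mmp19*. *Adamts17* (log2(FC) -3.69, SE 0.34, adjusted p = 2.47e-06), *Mmp11* (-3.65, SE 0.44), *Adamts4* (-3.13, SE 0.59) and *Adamts19* (-3.01, SE 0.28) fell most. Of the 14, *Adamts8* and *Adamts19* passed the filter through the wild type at 2 weeks alone, the group where they were high. The 2 members that rose were *Mmp3* (2.20, SE 0.29, adjusted p = 5.23e-05) and *Timp4* (1.71, SE 0.26, adjusted p = 0.000171). The call of *Adamts6* was lost without wild type replicate 1 or 3 at 10 weeks (log2(FC) -1.18 and -1.16, adjusted p = 0.0139 and 0.0144, in a range of 0.00122 to 0.256 over 24 alternatives). That of *Adamts15* (-1.23, SE 0.32, adjusted p = 0.00578) was lost without wild type replicate 1 or 3 of 10 weeks or replicate 1, 2 or 3 of 2 weeks (adjusted p of 0.0137 to 0.0265), and its log2(FC) was 0.07 with the length and GC trend removed, in a range of the adjusted p from 0.000181 to 0.796. Median-of-ratios scaling and quantile normalization also lost both calls, which were kept in 17 of 24 (*Adamts6*) and 16 of 25 (*Adamts15*) alternatives. Hair follicle markers summed to 10.2 to 11.4 FPKM in the wild type at 10 weeks, far below their level at 2 weeks. Of 5 endothelial markers 4 fell, from 67.3 to 74.9 FPKM in sum at 2 weeks to 35.4 to 43.1. *Cldn5* of this list was higher at 10 weeks with no overlap (20.9 to 32.7 against 13.2 to 17.3 FPKM) and was not called. The part of these cells in the changes with age was not tested.

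In *Socs3* cKO a few ADAMTS genes changed with age. Of 35 members, 4 were called, against 3.54% of all genes, with 3 up-regulated and 1 down-regulated, against 2.01% and 1.53%, and the median was 0.39, with 0.11 over all genes. *Adamts4* rose by a log2(FC) of 4.46 (SE 0.55, adjusted p = 0.000149), *Adamts16* by 2.80 (SE 0.46, adjusted p = 0.00148) and *Adamts8* by 1.33 (SE 0.26, adjusted p = 0.00482). All *Socs3* cKO mice at 10 weeks were higher than each of those at 2 weeks for 9 members and lower for 3, against 7.71% and 6.79% of all genes. *Adamts19* fell by 1.27 (SE 0.26, adjusted p = 0.00607). Every *Socs3* cKO value of *Adamts8* and *Adamts19* was below 1 FPKM, and *Adamts16* passed the filter through *Socs3* cKO at 10 weeks alone. The call of *Adamts19* was lost without any 1 wild type mouse of 2 weeks, *Socs3* cKO replicate 1 or 3 of 2 weeks or replicate 1, 2 or 3 of 10 weeks (adjusted p of 0.0104 to 0.0234, log2(FC) of -1.46 to -1.15 over the mice left out, adjusted p of 0.00131 to 0.0812 over all 25 alternatives). That of *Adamts8* was lost without *Socs3* cKO replicate 1 or 4 of 2 weeks or replicate 1, 2 or 3 of 10 weeks (adjusted p of 0.0103 to 0.0202, log2(FC) of 1.20 to 1.48, and 0.00141 to 0.0524 over all). A pseudocount of 1 also lost both calls, and they were kept in 12 (*Adamts19*) and 18 (*Adamts8*) of 25 alternatives. *Mmp2* and *Timp3*, with 0.85 and 0.89, were not called. The genotype and age comparisons share groups of mice with each other, so their values are given side by side and not as separate evidence.

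Genes that work with the members were counted from 5 lists of related genes. Over all genes tested, 7.24% rose and 7.19% fell at 2 weeks. The lists are short, so a count of 1 or 2 genes says little about a list. At 2 weeks, 4 of 9 tested ADAM proteases fell, among them *Adam33* (log2(FC) -2.46) and *Adam12* (-2.24), and their median was -1.11. Of 7 ADAMTS-like proteins, which lack the protease domain, *Adamtsl2* alone fell (-2.04). Of 17 matrix substrates, 6 fell and 1 rose, with *Col1a1* at -3.06, *Fbn2* (fibrillin 2) at -2.03, *Col4a1* at -1.95 and *Dcn* (decorin) at 1.24. Of 8 genes on the list of proteases that activate MMPs, which also holds the urokinase receptor *Plaur*, *Plat* (tissue plasminogen activator) fell (-1.38). Of 8 other inhibitors and regulators, *A2m* (alpha-2-macroglobulin, which traps active MMPs) rose, from 0.525 to 1.27 FPKM in the wild type to 18.0 to 31.7 in *Socs3* cKO (log2(FC) 4.81, SE 0.30, adjusted p = 4.73e-05).

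At 10 weeks no related gene was called down by limma, against 2.43% of all genes, and 0 had a lower level at an unadjusted p below 0.05. The counts of rises below stand against 12.5% of all genes that rose at this age. Of 9 ADAM proteases 2 rose, *Adam8* (1.89) and *Adam9* (1.05), and of 6 ADAMTS-like proteins 0 were called by limma, with 5 at an unadjusted p below 0.05, all higher. Of 17 matrix substrates 3 rose, *Lama3* (1.76), *Col4a2* (1.30) and *Col4a1* (1.02). Of 8 genes on the list of activating proteases, *Plaur* (the urokinase receptor, itself no protease) rose by 1.91 and *Pcsk6* by 1.01. Among the other inhibitors and regulators, *Thbs1* (log2(FC) 1.91) and *A2m* (1.83) rose. The medians of these 5 lists at 10 weeks lay between 0.66 and 0.93, with 0.31 over all genes.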

How the data were processed

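Ear RNA of 15 mice was measured by RNA-seq. The authors aligned single 50-base reads to mm9 with TopHat2 (version 2.1.0), and the deposited values are FPKM per gene, for which the submitters' processing notes also name Cufflinks. Read counts were not used, so depth could only be estimated (40.6% to 55.2% of low values lay within 0.1 of a whole number of reads), and no counting error per gene is given. No pair of libraries shared more than 1 identical value above 0. Groups came from the labels. Values were compared as log2(FPKM + 0.1) with limma (version 3.58.1, trended prior variance, R 4.3.3). Genes entered a fit when 3 or more of its samples had 1 FPKM or more. Each age was fitted alone, and the interaction and age changes on all 4 groups. Tests were 2-sided, with Benjamini-Hochberg adjustment over all genes tested. For a DEG the adjusted p had to be below 0.01 and the |log2(FC)| 1 or more, and the interaction used the former alone. p-values measure the spread between mice of 1 library each. On simulated data with a log2 change of 2, the limma step recovered 197 of 200 changed genes with the 2-week design (13391 genes). With the 10-week design it recovered 143 of 200 (12693 genes), and each design gave 0 false calls. Noise for every simulated mouse was drawn from wild type values alone. Real *Socs3* cKO libraries varied more at 2 weeks (Pearson r between mice 0.937 to 0.982, against 0.979 to 0.985 in the wild type). At 10 weeks they varied less (0.972 to 0.981 against 0.942 to 0.958). So these counts do not measure power or false calls for the real mice. The members and lists were chosen with earlier results of these data known. Named with a value in every sample were members called in either genotype comparison or with an interaction adjusted p below 0.01 and the 4 *Timp* genes, and up to 4 related genes of each list with the largest change at each age. A related gene that this rule names is not reported here. Positions came from a GENCODE annotation of mm9, transcript length and GC content were found for 92.1% of genes and all 46 members, and 32 of 46 members had a RefSeq promoter. Alternatives were pseudocounts of 1 and 0.01, no and a stricter filter, median-of-ratios scaling, quantile normalization, removal of each library's trend with length and GC content (with 3 *Socs3* cKO libraries added after seeing the data), a constant prior variance, a replicate block, 1 fit of all groups, and leaving out each mouse. Python 3.11.15, numpy 2.4.6, pandas 2.3.3, scipy 1.17.1 and matplotlib 3.10.9 were used. More wild type mice that the methods count were not analysed here.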

Additional observations from a re-analysis of the deposited data

Results flagged for a closer look

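In 7 of 66 groups of 4 mice, over the 22 members named by rule, 1 mouse lay far from the other 3, by a gap that took most of the range of the group (Dixon's test). *Mmp14*, named after its values were seen, was not among these 22. Its *Socs3* cKO replicate 1 at 2 weeks was also low (5.58 FPKM against 44.9 to 53.7 in the others of the group). Chance flags about 1 group in 20. In *Socs3* cKO at 2 weeks replicate 1 was the low value for *Adamts2* (5.12 FPKM), *Adamts4* (0 FPKM), *Adamts7* (0.144 FPKM), *Mmp2* (174 FPKM) and *Mmp28* (0.297 FPKM). This is the library with the lowest values for genes of high GC content. *Adamts16* was highest in replicate 2 of the same group (0.114 FPKM), and *Adamts19* was lowest in *Socs3* cKO replicate 2 at 10 weeks (0.0125 FPKM), both close to the value of single reads.

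The *Socs3* cKO change differed between 10 and 2 weeks by the interaction test (limma, adjusted p below 0.01) for 19 members. Among the MMP genes the interaction, as a difference of log2(FC), was 3.50 for *Mmp11*, 3.37 for *Mmp28*, 2.66 for *Mmp19*, 1.43 for *Mmp16* and 1.25 for *Mmp2*. Among the ADAMTS genes it was 7.58 for *Adamts4*, 3.78 for *Adamts8*, 3.66 for *Adamts16*, 3.06 for *Adamts10*, 2.83 for *Adamts17*, 2.75 for *Adamts7*, 2.39 for *Adamts12*, 2.12 for *Adamts2*, 1.74 for *Adamts19*, and 1.73 for *Adamts1* and *Adamts9*. Of these, *Adamts8*, *Adamts16* and *Adamts19* passed the filter through 1 group alone. Of the inhibitors, *Timp2* was at 1.88, *Timp3* at 1.21 and *Timp4* at -2.79. The median over all genes was 0.55 and became 0.10 after median-of-ratios scaling.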

How the results depend on the processing

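Of the values of called members under the alternatives, 1089 kept their direction and their side of the threshold, 195 kept the direction but no longer passed and 2 turned. Both were of *Adamts15* with age in the wild type, which went from -1.23 to 0.07 with the length and GC trend removed, with and without *Socs3* cKO replicate 1 at 2 weeks. The count of members changed at 2 weeks was 9 and became 15 (1 up, 14 down) with all 4 groups in 1 fit. The count of members with an interaction was 19 and became 11 (6 up, 5 down) with the length and GC trend removed, and 10 (6 up, 4 down) when *Socs3* cKO replicate 1 at 2 weeks was also left out. Of those with the trend removed, 6 were shared with the 19 in each case. The count of members changed with age in *Socs3* cKO was 4 and became 2 with a pseudocount of 1 and 7 after median-of-ratios scaling. Without 1 mouse in turn, the counts ranged from 5 to 14 at 2 weeks, 6 to 11 at 10 weeks, 10 to 22 for the interaction, 14 to 21 for age in the wild type and 1 to 7 for age in *Socs3* cKO. The cause was not tested.

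The labels name nothing that mice with the same replicate number share. Deviations of mice with the same number had a correlation of -0.057 to 0.057 at 2 weeks and -0.203 to 0.036 at 10 weeks. For mice with different numbers it was -0.142 to 0.091 and -0.211 to 0.156. So few pairs cannot show whether such mice shared a litter or a preparation day. With the replicate block 6 members were called at 2 weeks, 7 at 10 weeks, 18 for the interaction, 17 for age in the wild type and 3 for age in *Socs3* cKO. Values near 1 read (0.02 to 0.0292 FPKM in 3000 bases) limit *Adamts16* and *Adamts19*, and library batch, genotype and age cannot be told apart.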
